A study of Mus musculus with 11 samples.

Results

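The baseline transcriptome of MLTCs, mouse Leydig tumor cells kept as a line in culture, was described from the 4 arrays of cells transfected with non-targeting RNA (control arrays 1 to 4), of 11 arrays in the series. These arrays were chosen by their labels, and no measured value entered the choice. The other 7 arrays measured MLTCs transfected with 1 of 2 different siRNAs against *Mamld1* (siRNA1, 4 arrays, and siRNA2, 3 arrays). In all 3 groups the RNA was used at 20 nM and the incubation lasted 48 hours. The study's methods state that RNA was taken from cells harvested 1 hour after addition of human chorionic gonadotropin (hCG), an agonist of the LH receptor, whereas the sample labels name no hCG. The control cells were therefore transfected, hormone-treated tumor cells of 1 cell line, and neither untransfected nor unstimulated MLTCs nor normal Leydig cells were measured. The labels do not say whether the 4 samples came from separate cultures, so the spread between them may be technical.

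Leydig cells lie between the seminiferous tubules of the testis and make testosterone from cholesterol under the control of LH. Cholesterol is carried into the mitochondria, cleaved there to pregnenolone, and converted by enzymes of the endoplasmic reticulum. The same cells secrete insulin-like 3, the hormone of testicular descent. Sertoli cells, granulosa cells, and adrenal cortical cells share part of this program because they descend from related progenitors, whereas germ cells do not.

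The levels below are log2 signals relative to the 75th percentile of the array, so 0 is the 75th percentile itself. A probe was taken as detected when the scanner software found it well above background on all 4 control arrays. The order of genes is an order of probe signals and not of transcript amounts, because the probes of different genes can differ in brightness at equal RNA. The 75th percentile of the 4 control arrays was a signal of 469.7 to 582, and 0 spots were saturated. The lowest signal well above background lay at -6.39 to -5.96 on this scale, and the median of the negative control spots at -8.50 to -7.99. Pearson's r across the detected probes was 0.993 to 0.997 between pairs of control arrays, as a description, since probes are not independent. The median SD of a detected probe over the 4 arrays was 0.15. *Mamld1*, the gene targeted by the siRNAs, was itself dim in the control cells, at -4.37, -4.42, -3.93, and -4.03, and lay below the lowest of these on all 7 siRNA arrays. On this dim probe its decrease was less than 2-fold with either siRNA (log2 difference -0.93 with siRNA1, limma adjusted p = 0.00570, and -0.77 with siRNA2, limma adjusted p = 0.0309), so *Mamld1* was not among the calls given below. By real-time PCR at the same harvest time, the study reported markedly reduced *Mamld1* mRNA with both siRNAs.

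Of 41174 probes, 23143 (56.2%) were detected on all 4 control arrays. A further 862 were well above background on 3 of the arrays, 879 on 2, and 1672 on 1, and 14618 on none. Symbols could be given to 24375 probes of 17016 genes, and 11477 of these genes (67.4%) were detected by at least 1 probe. This 67.4% is the share against which every gene list is set below. The detected probes had a median level of -0.56, and the others of -7.87, close to the negative control spots. Only 1028 detected probes (4.44%) exceeded a level of 5. The number of probes well above background was also compared between the control and the siRNA arrays. This number was 24647 ± 739 on the control arrays (SD, n = 4), 25135 ± 600 with siRNA1 (n = 4; two-sided exact permutation test, adjusted p = 0.686), and 24675 ± 279 with siRNA2 (n = 3; exact permutation test, adjusted p = 0.971). With 4 against 3 arrays the smallest unadjusted p of this exact test is 0.0571. Of the probes detected in the control cells, 97.8% were well above background on all 11 arrays.

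**Figure D1:**
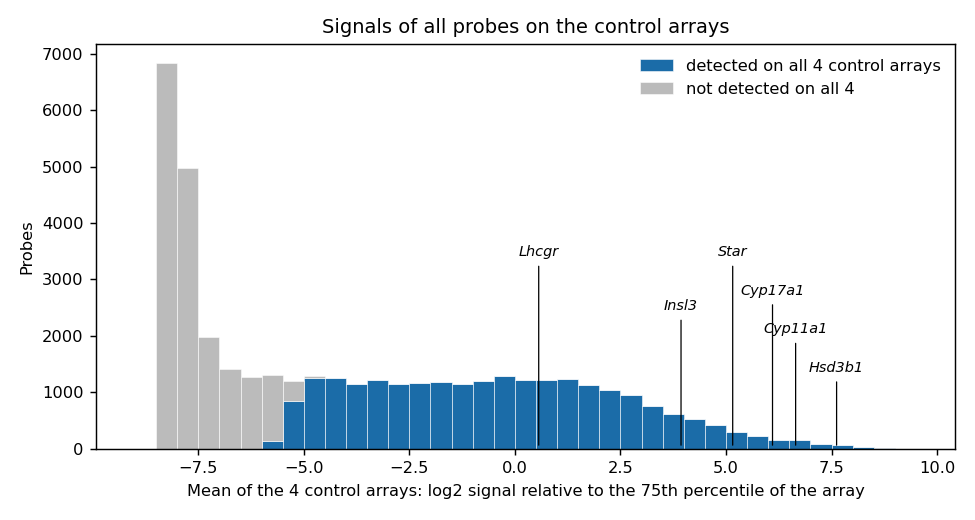
Number of probes (y axis) by mean log2 signal relative to the 75th percentile of the array (x axis) over the 4 control arrays, with detected probes in blue and the others in gray, stacked. Vertical lines mark the brightest probe of the 6 Leydig markers, which stand between 0.56 (*Lhcgr*) and 7.62 (*Hsd3b1*), whereas most probes that were not detected stand near -8.

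All 6 Leydig markers were detected, and 3 of them ranked among the 500 brightest genes. *Hsd3b1* encodes the 3β-hydroxysteroid dehydrogenase that converts pregnenolone to progesterone, and its level was 7.61, 7.44, 7.69, and 7.74 on the 4 arrays (mean 7.62, SD 0.13), which placed it 66th of 17016 genes. *Cyp11a1*, the side-chain cleavage enzyme that makes pregnenolone from cholesterol, stood at 6.65, 6.30, 6.74, and 6.91 (mean 6.65, SD 0.26, rank 220). *Cyp17a1*, which hydroxylates progestogens at carbon 17 and cleaves them to androgens, stood at 6.03, 5.82, 6.21, and 6.34 (mean 6.10, SD 0.23, rank 349). Control array 2 was the lowest of the 4 for all 3 of these enzymes and control array 4 the highest.

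*Star* encodes the protein that moves cholesterol to the inner mitochondrial membrane, and its brighter probe gave 4.87, 5.12, 5.52, and 5.13 (mean 5.16, SD 0.27, rank 678), while its other probe had a mean of 4.42. *Insl3*, the gene of insulin-like 3, stood at 3.50, 3.84, 4.19, and 4.20 (mean 3.93, SD 0.33, rank 1505). *Lhcgr*, the receptor that binds LH and hCG, was the dimmest of the 6 and the steadiest, at 0.60, 0.53, 0.59, and 0.53 (mean 0.56, SD 0.04, rank 5882). The 2 arrays of the first slide (control 1 and 2) were the lowest for *Insl3*, and their part in its spread was not tested. In the order of the 6 marker signals, the values of *Cyp11a1* and *Cyp17a1* overlapped, and those of the other neighbours did not.

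Most of the remaining steroidogenic genes were bright, but several were dim or not detected. Of 20 enzymes and electron donors of steroid synthesis, 18 were detected, with a median level of 4.46 against -1.84 over all named genes. Besides the markers, the brightest were *Fdx1* (7.14 ± 0.02, SD, n = 4), the ferredoxin that passes electrons to *Cyp11a1* protein, and *Hsd17b10* (6.88 ± 0.14), a mitochondrial dehydrogenase of broad specificity. *Hsd17b3* encodes the testicular enzyme that reduces androstenedione to testosterone, and its level was -4.62, -5.54, -5.13, and -5.22, within 1.5 log2 units of the lowest signal well above background on each array. *Cyp19a1*, the aromatase that makes estrogens, was similarly faint by its brighter probe (-4.19 ± 0.12), and its other probe (-8.36) was well above background on no control array. *Hsd17b1*, the estradiol-forming enzyme of granulosa cells, and *Srd5a2*, a 5α-reductase of androgen target tissues, were not well above background on all 4 arrays.

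Cholesterol supply was detected throughout. All 16 genes for uptake, storage, and transport passed (median level 2.95), among them *Dbi* (7.96 ± 0.10), the brightest, an acyl-CoA binding protein that is also a ligand of the translocator protein, and *Tspo* (5.21 ± 0.06), the translocator protein of the outer mitochondrial membrane. All 20 genes of cholesterol synthesis passed as well (median level 5.27), and 10 of them were among the 500 brightest genes. *Msmo1*, a methylsterol monooxygenase, stood at 7.94, 8.26, 8.21, and 8.17. *Fdps* (7.27 ± 0.10), the farnesyl diphosphate synthase, was bright as well. On all 4 arrays these probes were far from the lowest signal well above background.

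**Figure D2:**
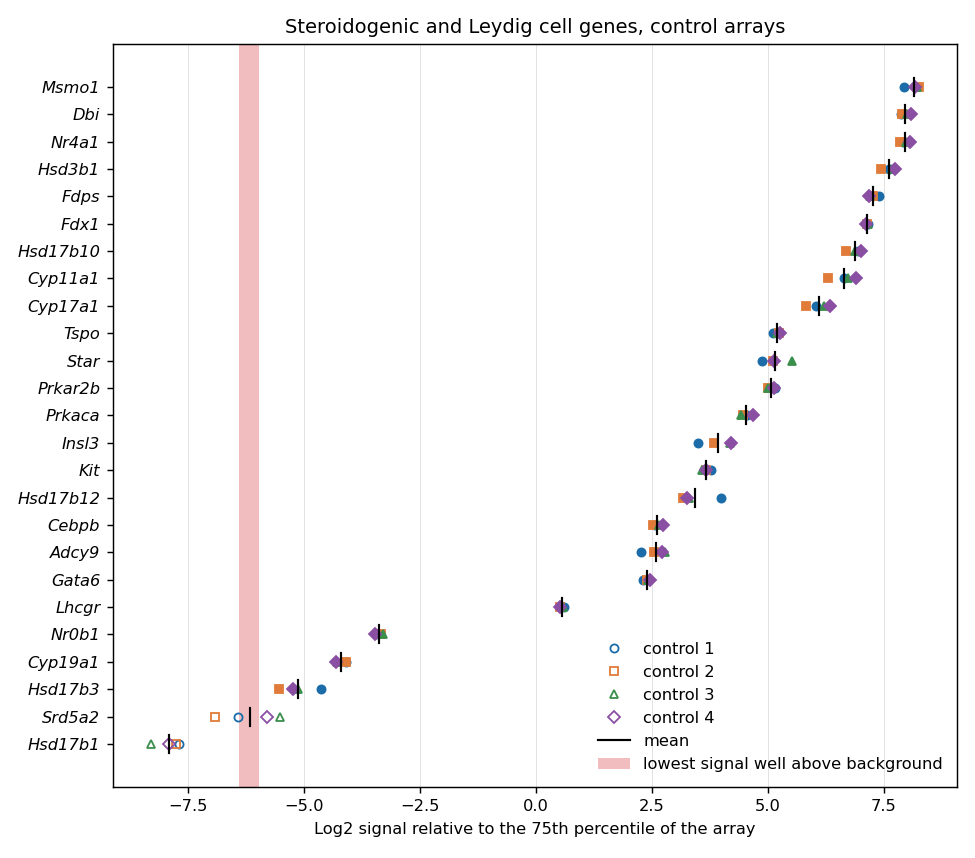
Log2 signal relative to the 75th percentile of the array (x axis) of genes of steroid and cholesterol synthesis, cholesterol supply, and Leydig cell signaling and regulation that are named in the text, each by its brightest probe (y axis, in order of the mean). Symbols are the 4 control arrays, filled where the gene was detected, black bars are means, and the red band spans the lowest signals well above background of the 4 arrays. *Hsd17b3* lies just above the band and *Hsd17b1* and *Srd5a2* have open symbols.

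Receptors and regulators were less bright than the enzymes. Of 19 genes for receptors and cAMP signaling, 17 were detected, with a median level of 0.57. The brightest encode subunits of protein kinase A, the kinase activated by cAMP, namely *Prkar2b* (5.07 ± 0.08) and *Prkaca* (4.53 ± 0.11), and the receptor tyrosine kinase *Kit* (3.68 ± 0.08). *Adcy9*, an adenylate cyclase, stood at 2.59 ± 0.23. *Pdgfrb*, a receptor of platelet-derived growth factor, and *Pde4b*, a phosphodiesterase that degrades cAMP, were not well above background on any control array.

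Of 24 transcription factors of gonadal somatic cells, 16 were detected (66.7%), near the 67.4% of all named genes. *Nr4a1*, an orphan nuclear receptor induced rapidly by LH signaling in Leydig cells, was the only one among the 500 brightest genes, at 7.91, 7.86, 7.98, and 8.06 (rank 37). *Cebpb* (2.62 ± 0.09) and *Gata6* (2.39 ± 0.07) were dimmer. *Nr0b1*, a repressor of steroidogenic genes, was detected at -3.45, -3.33, -3.30, and -3.47. Among the 8 that were not detected, *Nr2f1*, *Tcf21*, *Lhx9*, *Emx2*, *Six4*, *Wt1*, and *Zfpm2* passed on no control array. *Wt1*, *Lhx9*, and *Emx2* act in the early gonadal ridge.

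Of 15 genes for secreted or surface products of Leydig cells, 12 were detected. *Vcam1*, a cell adhesion molecule, was the brightest (5.13 ± 0.07), followed by *Insl3*, by *Inha* (2.85 ± 0.09), which encodes the inhibin α subunit, and by *Rbp4* (2.67 ± 0.07), a retinol carrier. *Igf1*, *Thbs2*, and *Hpgds* did not exceed background clearly on any control array. Immediate early genes, which are switched on within minutes to hours of a stimulus such as cAMP, were detected in 19 of 22 cases with a median level of 1.34. Besides *Nr4a1*, the brightest were *Junb* (6.84 ± 0.12), *Btg2* (4.95 ± 0.19), and *Jund* (4.66 ± 0.11). *Nr4a2*, of the same family as *Nr4a1*, was near the limit (-5.24 ± 0.38), and *Nr4a3*, *Egr3*, and *Egr4* were not detected. Without an unstimulated sample, no response to hCG could be tested.

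The brightest genes of the control cells were mostly those of glycolysis, ribosomes, and mitochondria. Among the 25 brightest genes, 8 encode cytosolic ribosomal proteins, 4 encode subunits of the respiratory chain or ATP synthase, 3 encode glycolytic enzymes, and 2 encode cytoskeletal proteins. *Aldoa*, the glycolytic enzyme aldolase A, was the brightest named gene, at 9.25, 9.44, 9.28, and 9.36, and it ranked 1st or 2nd on every control array. *Rps16* (9.08 ± 0.07) and *Rpl41* (8.97 ± 0.10), both ribosomal proteins, came 2nd and 4th. *Uqcrh* (8.74 ± 0.06) and *Cox6a1* (8.70 ± 0.12) belong to respiratory complexes III and IV by name, and *Atp5c1* (8.23 ± 0.09) and *Atp5b* (8.12 ± 0.20) to ATP synthase.

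The order among close neighbours was not fixed, since ranks differed between arrays for all 25 genes. *Lars2*, the mitochondrial leucyl-tRNA synthetase, was 3rd by its mean but ranged from 8.24 and 8.81 on control arrays 1 and 2 to 9.52 and 9.50 on control arrays 3 and 4, and its rank from 1 to 13. Its SD of 0.61 was the largest among the 25. Arrays 1 and 2 share a slide, and its part in this difference was not tested. By contrast, *Pgk1*, phosphoglycerate kinase, stood at 8.41, 8.35, 8.41, and 8.53. The other genes among the 25 that belong to no list were *Gstm1* (8.77 ± 0.24) and *Gstm2* (8.18 ± 0.14), glutathione transferases, *Sod1* (8.69 ± 0.13), the cytosolic superoxide dismutase, *Abhd4* (8.11 ± 0.08), and *Aldh1a1* (8.11 ± 0.08), a retinaldehyde dehydrogenase. The remaining ones were *Rps18*, *Rpl7a*, *Rps2*, *Myl6*, *Rplp1*, *Rps14*, *Tuba1c*, *Ctsl*, *Rpl37a*, and *Ldha*, with means from 8.10 to 8.72, and *Msmo1*, described above. In the order of all probes, 5 of the 25 brightest had no symbol. The brightest of them stood at 8.72, 9.10, 9.65, and 9.73, and like *Lars2* was lower on control arrays 1 and 2 than on 3 and 4. *Lars2* had only 1 probe, so its level could not be compared with that of another probe. The other probes without a symbol are not described.

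**Figure D3:**
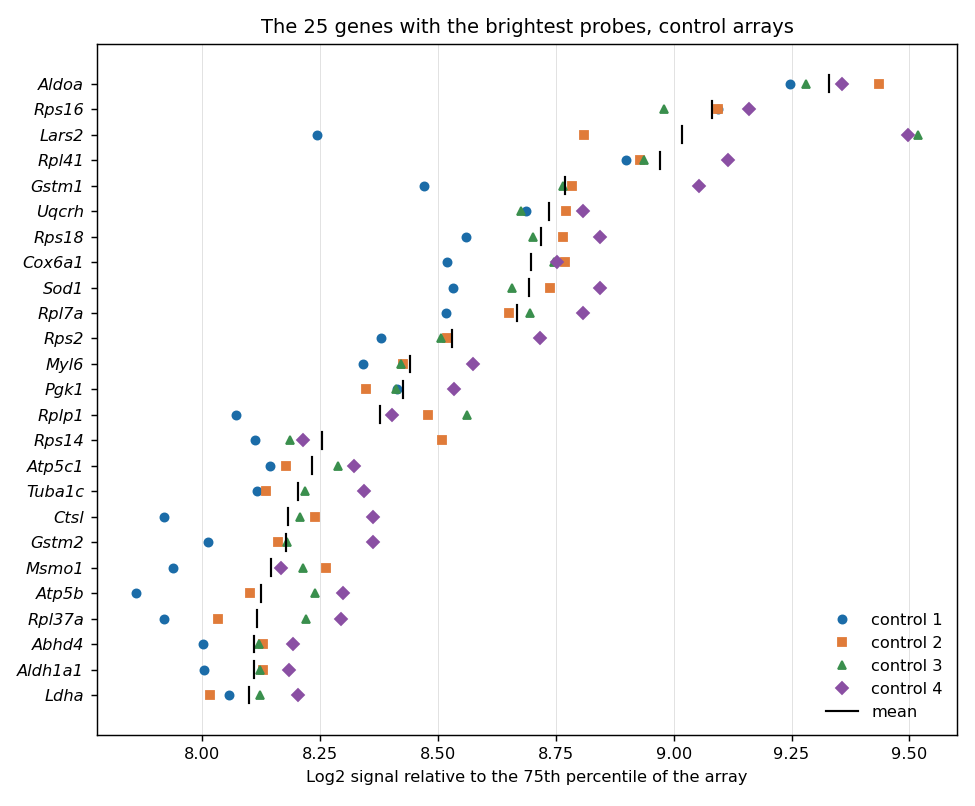
Log2 signal relative to the 75th percentile of the array (x axis) of the 25 genes with the brightest probes (y axis, in order of the mean). Symbols are the 4 control arrays and black bars are means. *Aldoa* lies between 9.25 and 9.44, while *Lars2* spreads from 8.24 to 9.52.

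The housekeeping lists behaved alike below this top group. Of 81 ribosomal protein genes, 80 were detected (median level 6.64) and 63 were among the 500 brightest genes. The exception was *Rpl39l*, a paralog of *Rpl39*. Of 79 genes of the respiratory chain and ATP synthase, 77 were detected (median level 5.55), and the exceptions, *Cox8b* and *Cox8c*, are paralogs of *Cox8a*. Proteasome subunits were detected in 37 of 38 cases (median level 5.15), the exception being *Psmb11*, the subunit of the thymic proteasome. Glycolysis (14 of 14, median level 7.17), translation factors (16 of 16, 5.51), lysosomal and iron storage genes (13 of 13, 5.52), and proliferation genes (20 of 21, 4.28) were likewise nearly complete. *Ccnd2*, a D-type cyclin, was the proliferation gene not detected. Among the lysosomal genes, *Grn*, which encodes progranulin, gave 6.62, 7.51, 8.44, and 8.01 with its brighter probe, whereas its other probe stayed between 5.14 and 5.60.

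Of the genes that mark other somatic cells of the gonads and the adrenal, some were bright and others were not detected. Of 19 Sertoli cell markers, 10 were detected (52.6%), fewer than the 67.4% of all named genes. *Clu*, a secreted chaperone, was the brightest, at 5.73, 5.60, 5.97, and 6.12, and *Dhh* (1.42 ± 0.08), *Gata1* (0.82 ± 0.13), *Defb36* (0.47 ± 0.08), and *Inhbb* (-0.33 ± 0.17) followed. *Rhox5* (-0.92 ± 0.13), *Trf* (-1.37 ± 0.12), and *Amh* (-2.57 ± 0.29), the gene of anti-Müllerian hormone, were dimmer, and *Ptgds* (-4.59 ± 0.33) and *Gdnf* (-5.24 ± 0.29) were close to the limit. *Sox9*, *Sox8*, *Dmrt1*, *Wt1*, and *Aard* were not well above background on any control array. *Fshr*, the receptor of FSH, was well above background on 1 control array, *Cldn11* on 1, and *Mro* and *Cst9* on 2 each. Among these, *Sox9* is the factor that directs the Sertoli cell fate.

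Granulosa and ovarian markers were detected in 8 of 15 cases. *Amhr2*, the receptor of anti-Müllerian hormone, stood at 4.43, 4.60, 4.59, and 4.68, and *Inha* and *Inhba* (2.51 ± 0.19), the subunits of inhibins and activins, were also well above the limit. *Greb1* (-1.01 ± 0.27) and *Wnt4* (-1.73 ± 0.09) were dim. *Foxl2*, the factor that maintains granulosa cells, was faint at -4.52, -4.34, -4.55, and -4.79, and so was *Bmp2* (-5.55 ± 0.16), while *Fst*, *Rspo1*, *Nr5a2*, *Esr2*, *Irx3*, and *Hsd17b1* were not well above background on any control array.

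The adrenal list gave 5 of 7 genes, close to the 67.4% of all named genes. *Mrap*, the accessory protein that brings the ACTH receptor to the cell surface, stood at 6.44, 6.81, 6.78, and 6.72 and ranked 216th. *Mc2r*, the ACTH receptor itself, was dim and uneven, at -2.81, -3.32, -3.95, and -3.89, with the arrays of the first slide above the other 2. *Akr1b7*, an aldose reductase of steroidogenic cells, had a level of 4.10 ± 0.12, *Sult2a8* of 0.92 ± 0.17, and *Hoxb9* of -0.38 ± 0.26. *Cyp21a1*, the 21-hydroxylase, was well above background on 2 of 4 arrays and *Cyp11b2*, the aldosterone synthase, on 1.

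Germ cell genes were detected in a smaller share than the Sertoli cell, granulosa, and adrenal lists. Of 61 markers of male germ cells, 24 were detected (39.3%, against 67.4% of all named genes), 30 passed on no control array, and the median level was -6.66. By stage, 7 of 18 genes of primordial germ cells and spermatogonia, 7 of 19 meiotic genes, and 10 of 24 genes of spermatids and sperm were detected. When a signal of at least 4 times the lowest one well above background was asked for on every array, an alternative chosen after seeing the data, 13 of the 61 remained (21.3%, against 59.3% of all named genes). The spermatid list then fell to 3 of 24.

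The genes that cleared this higher limit were few and can be named. *Syce2*, a component of the synaptonemal complex of meiotic chromosomes, was detected at 3.40, 3.50, 3.39, and 3.35, and *Mov10l1*, a helicase of the piRNA pathway, at 2.34, 2.18, 2.50, and 2.33. *Rec8*, a meiotic cohesin, stood at 0.82, 0.85, 1.10, and 1.08. *Hspa2* (0.59 ± 0.10), a testis-enriched chaperone, and *Spo11* (-3.58 ± 0.16), which makes the meiotic double-strand breaks, complete the meiotic genes above it. Among the spermatogonial genes, *Uchl1* (4.16 ± 0.15) and *Kit* were bright, and both are also used outside the germ line, as are many markers of these lists. *Dnd1* (1.03 ± 0.09), *Sall4* (-0.86 ± 0.14), and *Sohlh2* (-3.05 ± 0.28) were the others. Of the spermatid genes, *Prm1*, a protamine that packs sperm DNA, stood at -1.36, -1.36, -1.68, and -1.57, *Tssk6*, a testis-specific kinase, at -2.11 ± 0.18, and *Tnp1*, a transition protein, at -3.35 ± 0.22. These levels are of the brightest probe, and other probes of some of these genes were dimmer. For *Prm1* they had means of -3.35 and -7.20, the last well above background on 1 control array. Another *Mov10l1* probe stood at -2.02. Another *Sall4* probe (-7.84) was well above background on no control array.

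The germ cell genes below the higher limit were *Nanos3*, *Ddx4*, *Msh5*, *Sycp3*, *Acr*, *Gapdhs*, *Tnp2*, *Tssk1*, *H1f7*, *Prm2*, and *Crisp2*, with levels from -5.46 to -3.75. *Ddx4*, an RNA helicase of germ cells, was representative of them at -4.62, -4.45, -4.79, and -5.02. Not well above background on any control array were, among others, *Dazl*, *Stra8*, *Lin28a*, *Pou5f1*, and *Dppa3* of the spermatogonial list, *Sycp1*, *Sycp2*, *Dmc1*, *Smc1b*, *Hormad1*, *Stag3*, *Mael*, *Ldhc*, and *Pgk2* of the meiotic list, and *Odf1*, *Akap3*, *Akap4*, *Smcp*, *Izumo1*, and *Zpbp* of the spermatid list. The detected gonadal and germ cell genes nearest the limit were *Bmp2* (-5.55) and *Crisp2* (-5.46). The brightest ones not detected were *Cst9*, at -5.17, -5.52, -5.99, and -4.98, and *Msh4*, whose mean rested on control array 2 (1.08), since the other 3 arrays gave -7.87, -8.24, and -7.79. Of 16 oocyte markers, 4 were detected, *Bcl2l10* (-0.38 ± 0.10), *Gdf9* (-2.18 ± 0.14), *H1f8* (-3.31 ± 0.26), and *Zar1* (-4.86 ± 0.33), whereas *Zp2*, *Bmp15*, *Figla*, and *Nobox* passed on no control array.

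**Figure D4:**
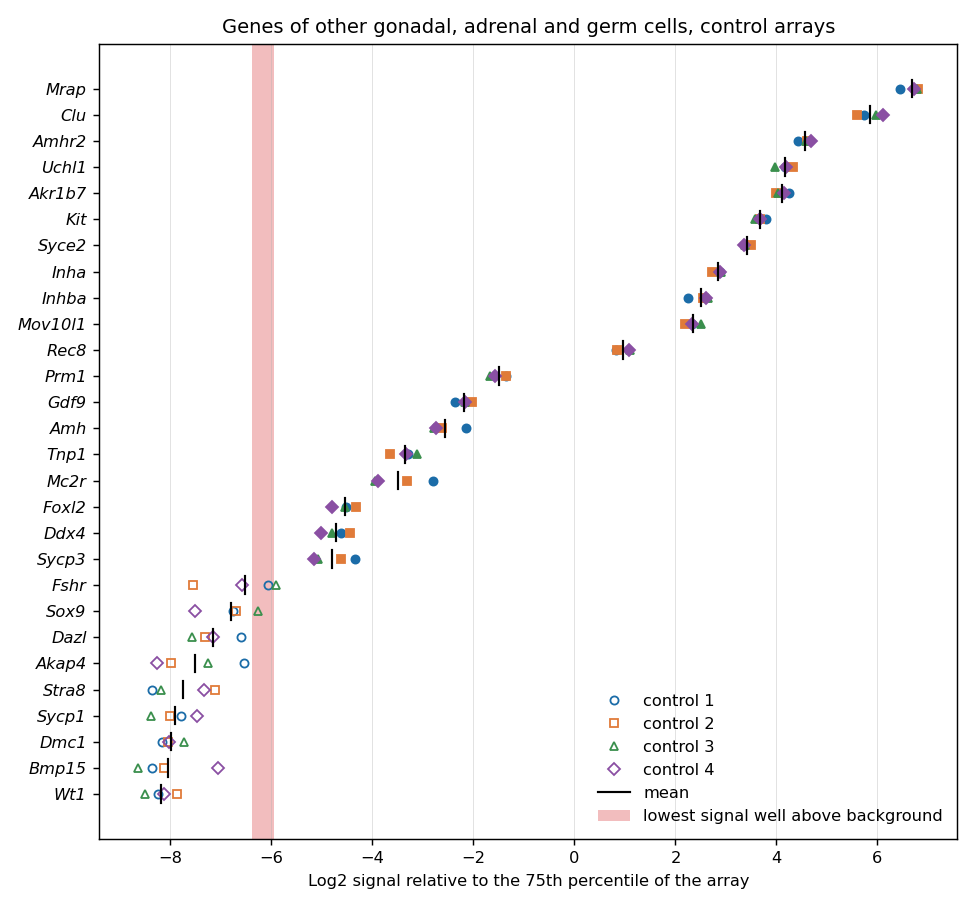
Log2 signal relative to the 75th percentile of the array (x axis) of genes of Sertoli, granulosa, adrenal cortical, and germ cells (y axis, in order of the mean), chosen from the lists to show detected and not detected members. Symbols are the 4 control arrays, filled where the gene was detected, black bars are means, and the red band spans the lowest signals well above background. *Mrap*, *Clu*, and *Amhr2* exceed 4, whereas *Sox9*, *Dazl*, *Sycp1*, and *Wt1* lie below -6.

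Faint detection was also found in a gene family that serves as a reference. Olfactory receptors act in the olfactory epithelium, and 181 of the 886 with a symbol on the array were detected (20.4%), with a median level of -7.45. At 4 times the lowest signal well above background, 67 were left (7.56%). Vomeronasal receptors, likewise of the olfactory system, gave 14 of 117. Both families were added after their values had been seen.

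Markers of cells from other tissues had shares between those of the olfactory receptors and of all named genes. Endothelial markers were detected in 2 of 9 cases, *Cdh5* (-0.61 ± 0.06) and *Esam* (-2.84 ± 0.12), while *Pecam1*, *Kdr*, *Tek*, *Tie1*, *Vwf*, *Emcn*, and *Flt1* passed on no control array. Of 14 macrophage and blood markers, 6 were detected, with levels from -4.70 to -2.06, among them *Cd3e*, *C1qb*, *Trem2*, *Hba-a1*, and *Cd14*. The pan-leukocyte gene *Ptprc* and the macrophage genes *Adgre1* and *Lyz2* were not. Peritubular and stromal markers gave 6 of 13, *Acta2* (3.85 ± 0.18), *Smtn* (-0.58 ± 0.25), *Tagln*, *Col1a2* (-3.92 ± 0.46), *Pdgfra* (-4.42 ± 0.05), and *Des* (-4.55 ± 0.15). The other *Acta2* probes had means of -2.82 and -8.16, the last well above background on no control array. *Tagln*, an actin-binding protein of smooth muscle, differed between the arrays, at -1.75 and -1.39 on control arrays 1 and 2 and at 0.52 and -0.58 on 3 and 4. The collagen gene *Col1a1* and the proteoglycan genes *Dcn* and *Lum* were well above background on none.

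Liver markers were detected in 5 of 12 cases, *Hc* (-2.43 ± 0.02), *Tat* (-2.47 ± 0.24), *Serpina3k* (-2.93 ± 0.20), *Hnf4a* (-4.07 ± 0.38), and *Afp* (-5.28 ± 0.13), and *Alb*, the albumin gene, was not. Muscle markers gave 3 of 7 (*Actc1*, *Ckm*, and *Myod1*), neural markers 4 of 11 (*Ddc*, *Map2*, *Syp*, and *Rbfox3*), and epithelial markers 4 of 9 (*Krt8*, *St14*, *Krt5*, and *Krt14*, without *Cdh1*). Pluripotency markers gave 3 of 8 (*Dppa5a*, *Utf1*, and *Tdgf1*), and *Nanog* and *Sox2* were not detected. For *Tdgf1* the value of control array 3 was left out because the software marked its spot as an outlier. Imprinted genes were detected in 9 of 17 cases, led by *Igf2r* (4.37 ± 0.13), *Gnas* (2.16 ± 0.19), *Dlk1* (1.19 ± 0.24), and *Impact* (-1.12 ± 0.11), while *Peg3*, *Grb10*, *Nnat*, *Phlda2*, *Zim1*, *Peg10*, and *Sgce* passed on no control array.

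**Figure D5:**
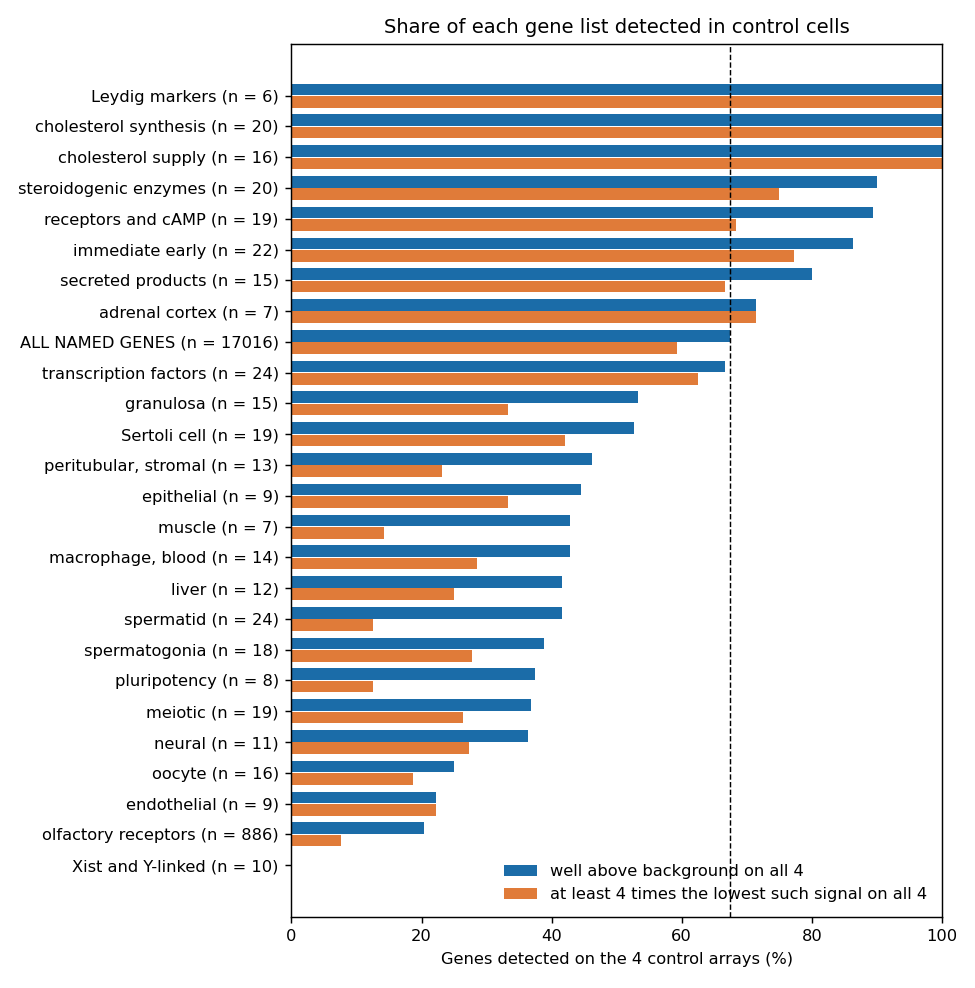
Share of the genes of each list detected on the 4 control arrays (x axis, percent; list sizes in parentheses), by the software's mark (blue) and by a signal of at least 4 times the lowest one so marked (orange). The dashed line is the 67.4% of all named genes. Lists of steroid and cholesterol genes stand above it, germ cell and other tissue markers below it, and the list of *Xist* and Y-linked genes at 0.

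No gene of the Y chromosome was detected. None of the 13 Y-linked genes with a symbol was well above background on all 4 control arrays, and 12 were so on none of them. *Ddx3y*, *Eif2s3y*, *Kdm5d*, and *Uty*, which are widely expressed in male tissues, had mean levels of -8.20, -8.06, -7.81, and -8.06, near the negative control spots. *Zfy2* was the exception on 1 array, at -5.64 on control array 3. *Xist*, the RNA that coats the inactive X chromosome, was not detected either (-8.37). For the other chromosomes the share of detected genes was 59.1% to 74.9%, and for the X chromosome it was 62.5% (376 of 602 genes).

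The promoters of detected genes held more CpG dinucleotides, the sites of DNA methylation in mammals, than those of genes not detected. RefSeq promoter sequences (GRCm38.p6, windows of 300 bases, 250 of them upstream of the start) were available here for 13589 of the 17016 genes. The median CpG count of a window was 20 for detected genes (11777 windows), 5 for genes not detected (5166 windows), 21 for the 500 brightest genes, and 1 for the olfactory receptors. Windows with at least 10 CpGs made up 76.3% for detected genes and 33.8% for the others. With these genes ordered by signal and split into 10 groups of equal size, this share was 78.7% to 87.2% in the 5 brightest groups, 64.4% in the next, and 31.4% in the dimmest. Genes and windows are not replicates, so no test is attached.

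The detected genes of steroid synthesis and cholesterol supply had a lower median than all detected genes, 15.5 CpGs per window (30 windows of 25 genes). *Hsd3b1*, bright as it was, had 2 CpGs in its window, and *Hsd3b2* and *Hsd3b6*, its paralogs, had 1 and 3. *Dazl*, not detected, had 28, whereas the median over the germ cell and oocyte markers not detected was 9 (47 windows). The heptamer AAGGTCA, a core recognized by the nuclear receptors of the *Nr5a1* and *Nr4a1* families, was in 0 of these 30 windows on either strand, in 3.44% of the windows of all detected genes, and in 4.72% of all 32851 windows, as a description of the letters in these windows only. The windows of *Star*, *Cyp17a1*, and *Nr5a1* were not analysed here. The 250 upstream bases of 4 genes are shown because they pair high and low CpG counts with bright genes and with one not detected, from 5′ to 3′ on the strand of the gene, with each CpG in capitals.
Hsd3b1, chr3:98859795-98860044, minus strand: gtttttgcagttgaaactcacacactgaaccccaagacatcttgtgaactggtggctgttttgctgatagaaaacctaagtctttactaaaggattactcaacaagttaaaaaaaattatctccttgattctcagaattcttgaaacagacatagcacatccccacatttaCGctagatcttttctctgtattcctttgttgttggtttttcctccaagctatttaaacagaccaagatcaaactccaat
Insl3, chr8:71689002-71689251, plus strand: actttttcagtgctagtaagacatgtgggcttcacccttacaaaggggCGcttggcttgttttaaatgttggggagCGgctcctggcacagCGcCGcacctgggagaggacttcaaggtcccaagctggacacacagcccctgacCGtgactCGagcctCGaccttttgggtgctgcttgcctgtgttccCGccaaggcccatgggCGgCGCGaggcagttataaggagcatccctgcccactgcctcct
Nr4a1, chr15:101266596-101266845, plus strand: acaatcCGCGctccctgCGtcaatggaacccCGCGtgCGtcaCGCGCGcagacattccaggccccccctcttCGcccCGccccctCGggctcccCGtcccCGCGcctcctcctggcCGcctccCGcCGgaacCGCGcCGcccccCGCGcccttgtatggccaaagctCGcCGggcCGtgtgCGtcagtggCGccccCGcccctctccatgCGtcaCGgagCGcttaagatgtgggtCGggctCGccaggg
Dazl, chr17:50293621-50293870, minus strand: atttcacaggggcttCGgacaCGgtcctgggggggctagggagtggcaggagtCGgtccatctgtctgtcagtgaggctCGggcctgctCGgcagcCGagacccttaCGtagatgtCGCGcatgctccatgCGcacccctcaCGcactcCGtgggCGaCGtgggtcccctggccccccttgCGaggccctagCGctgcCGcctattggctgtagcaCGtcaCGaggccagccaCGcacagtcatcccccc
Within these 250 bases there were 1 CpG for *Hsd3b1* (level 7.62), 11 for *Insl3* (3.93), 34 for *Nr4a1* (7.95), and 20 for *Dazl* (not detected). Among these 4 chosen genes, the one with the fewest CpGs was bright, and the one not detected had more than *Insl3*. They do not stand for the other genes.

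The detected genes whose signals varied most between the control arrays each owed their spread to 1 or 2 arrays. *Tyro3*, a receptor tyrosine kinase, stood at 0.82 on control array 2 and at -5.74, -5.73, and -5.59 on the others (SD 3.26). *Ttc21a* stood at -1.46 on control array 1 and between -5.13 and -4.64 on the others (SD 1.73), and *Slc18a1*, a vesicular monoamine transporter, at -0.39 on control array 4 and between -3.95 and -3.52 on the others (SD 1.70). *Olfr741* (-2.03, -4.25, -1.18, and -5.19) and *Rab11fip5* (-3.12, -5.17, -1.98, and -5.43) were higher on control arrays 1 and 3. Over all detected probes, 81 (0.350%) had an SD above 1. Pairs of control arrays differed by 2-fold or more at 124 probes (control 3 and 4) to 510 probes (control 1 and 3), and the pair on 1 slide (control 1 and 2) at 339.

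The list genes were then compared between control and siRNA arrays with limma, over all 24248 probes tested. Neither the labels nor the study's methods say whether the arrays of a group came from separate cultures. The SEs and p-values of these comparisons may therefore measure technical spread only. Calls required a 2-fold difference together with an adjusted p (Benjamini-Hochberg) of at most 0.05. With siRNA1, 726 probes were called (2.99%), and with siRNA2, 545 (2.25%). Taking each gene by its brightest probe, 362 of 11812 genes were called with siRNA1 (3.06%) and 285 with siRNA2 (2.41%). Of the 486 list genes tested, 14 were called with siRNA1 (2.88%, 2 higher and 12 lower) and 11 with siRNA2 (2.26%, 2 higher and 9 lower), near the shares of all genes. By direction, all genes gave 0.821% higher and 2.24% lower with siRNA1, and 0.635% higher and 1.78% lower with siRNA2. Both comparisons share the 4 control arrays. None of the 25 brightest genes was called in either comparison.

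None of the 6 Leydig markers was called. *Cyp17a1* fell with both siRNAs by less than 2-fold (log2 difference -0.92 with siRNA1, limma adjusted p = 0.000216, and -0.48 with siRNA2, limma adjusted p = 0.0237), and *Lhcgr* with siRNA1 (-0.63, limma adjusted p = 0.00285) only, its siRNA2 difference being 0.16 (limma adjusted p = 0.471). The other 4 markers did not pass an adjusted p of 0.05 with either siRNA. The study, at a p limit of 0.05 with no adjustment named, did report decreases with siRNA1. These were of *Hsd3b1* on the arrays and of *Cyp11a1* by real-time PCR, and neither was reproduced with siRNA2. Of the 18 steroidogenic enzymes tested, *Hsd17b12* was called, lower with siRNA2 (log2 difference -1.07, SE 0.25, limma adjusted p = 0.0122). Its control values were 3.98, 3.17, 3.31, and 3.26 and its siRNA2 values 2.84, 2.15, and 2.10, and the call was lost without control array 1, without siRNA2 array 2 or 3, with slide as a block, and by the methods' t-test after adjustment.

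The largest decrease among the list genes with siRNA1 was that of *Inhba*, the β-A subunit of activins and inhibins. It stood at 2.24, 2.55, 2.65, and 2.61 in the control cells and at 0.34, 0.65, 0.26, and 0.57 with siRNA1 (log2 difference -2.06, SE 0.13, limma adjusted p = 1.84e-06), so that the groups did not overlap. Within the 3 slides the difference was -2.05, -2.20, and -2.04. All 25 calls of list genes likewise showed no overlap and the same direction on the 3 slides, so neither feature was particular to *Inhba*. *Rec8* fell from the control values above to -0.41, -0.21, -0.32, and -0.23 (log2 difference -1.26, SE 0.11, limma adjusted p = 1.72e-05). *Ddx4* was called lower with siRNA1 (limma adjusted p = 0.000197), at -6.93, -6.63, -6.28, and -5.92. Only 1 of these 4 siRNA1 arrays was well above background, so the size of the decrease was not measured. With siRNA2, *Inhba*, *Rec8*, and *Ddx4* were not called.

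The genes called higher than in the control cells were *Nr0b1* and *Cdh5* with siRNA1 and *Cited2* and *Rpsa* with siRNA2. Of 17 transcription factors tested, 1 was thus called with each siRNA. *Nr0b1* rose with siRNA1 to a mean of -2.38 (log2 difference 1.00, SE 0.10, limma adjusted p = 3.23e-05), just past 2-fold, and the call was lost with slide as a block (0.99), without control array 1 or 4, and without siRNA1 array 2 or 3. *Cited2*, a transcriptional coregulator of gonadal and adrenal development, rose with siRNA2 from 1.56 to 2.61 (log2 difference 1.06, SE 0.13, limma adjusted p = 0.000208), and the call was lost without siRNA2 array 3. *Cdh5*, the endothelial cadherin, rose with siRNA1 (log2 difference 1.22, SE 0.11, limma adjusted p = 2.14e-05). Only 2 endothelial markers were tested, and the other one, *Esam*, was not called.

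Genes called with both siRNAs were 7, all lower than in the control cells. *Trem2*, a receptor of myeloid cells, stood at -3.83, -3.55, -3.52, and -3.65 in the control cells. It fell by 1.62 on the log2 scale with siRNA1 (limma adjusted p = 8.17e-05), whereas none of the 3 siRNA2 arrays had it well above background, which makes it at least 5.55-fold lower there (limma adjusted p = 5.43e-06). *Afp*, the α-fetoprotein gene, was well above background on all 4 control arrays and on none of the 7 siRNA arrays, which bounds its decrease at no less than 2.04-fold (siRNA1) and 1.78-fold (siRNA2). It entered the test through the control arrays alone, as did *Nr4a2*, so that filter favored a lower value with the siRNAs for both genes. *Hc* (log2 differences -1.13 and -1.33), *Serpina3k* (-1.01 and -1.05), *Ddc* (-1.08 and -1.12), *St14* (-1.61 and -1.44), and *Nr4a2* (lower with siRNA1, where 3 of 4 arrays were well above background, and at least 1.83-fold lower with siRNA2) were the others. All but *Nr4a2* are among the genes the study itself listed as changed in these samples, so their calls are not independent evidence.

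The remaining calls were *Krt8* (log2 difference -1.10) and *Dppa5a* (-1.13) with siRNA1, and *Psmd10* (-1.53), a proteasome subunit, and *Rpsa* (1.09), a ribosomal protein, with siRNA2. *Psmd10* and *Rpsa* were the only members called of the 37 proteasome subunits and 80 ribosomal protein genes tested. With normexp background correction, 6 of the 25 calls of list genes were kept (*Inhba* and *Rec8* with siRNA1, and *Cited2*, *Hsd17b12*, *Psmd10*, and *Rpsa* with siRNA2). The kept calls were of genes with control means of 0.96 (*Rec8*) or more, and the lost ones of 0.04 (*Ddc*) or less. The call of *Serpina3k* was also lost with either siRNA without control array 1, with siRNA1 without siRNA1 array 3 and under quantile normalization, median scaling, or slide as a block, and with siRNA2 without siRNA2 array 2. Also lost were the call of *Nr4a2* with siRNA1 without control array 3 or siRNA1 array 1, that of *Ddc* with siRNA1 without siRNA1 array 4, and that of *Rpsa* without siRNA2 array 2. No difference between the siRNAs was tested here.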

How the data were processed

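RNA from MLTCs was measured on 11 single-color Agilent mouse arrays (4 control, 4 siRNA1, and 3 siRNA2), with 300 ng of RNA labeled per array. The authors deposited spot intensities made with Agilent Feature Extraction (version 9.5 per the labels), background-subtracted and not normalized between arrays, together with the median intensity of spot and local background, and flags (an "other" unit) for outliers, saturation, and signal above background. They also deposited group averages of probes chosen by their own comparisons, which were not used. Here the intensities (gProcessedSignal) were converted to log2 and each array was scaled by subtracting its 75th percentile, taken over 43379 non-control spots. Spots marked as outliers were left out, and the spots of 245 probes present on 10 spots each were averaged. Probes were named by RefSeq accession (24375 of 41174), and 16799 stayed unnamed. A gene is represented by its brightest probe and counted as detected by any probe. Of 5779 genes with several probes, 927 had probes that disagreed in detection.

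The members, gene lists, and tests were chosen with earlier results of these data known. The genes named are the 25 brightest, all Leydig markers, up to 4 brightest detected members and the members not detected of each list (every detected member for other cell types), the gonadal genes nearest the limit, the 5 with the largest SD, and list members called with either siRNA. Some genes that this rule covers are not reported here. Group differences were tested with limma 3.58.1 in R 4.3.3, in 1 model of the 3 groups, for the 24248 probes that were detected throughout at least 1 group, with Benjamini-Hochberg adjustment. In simulated data with 200 of 24248 probes changed, 95% were called at a log2 change of 1.5 for siRNA1 against control and 93% for siRNA2, and at a change of 3 these shares were 99% and 100%, with 2 false calls each. Lists are described by counts and medians, with no set test. The alternatives were another normalization, background correction, dim-probe filter, detection mark, gene summary, or test, outlier spots kept, slide or replicate number as a block, and each array left out. The number of arrays limits the precision.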

Additional observations from a re-analysis of the deposited data

Results flagged for a closer look

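Of 40 sets of 4 control values checked (the 25 brightest genes, the Leydig markers, the 5 genes with the largest SD, and 4 properties of the arrays), 5 had 1 array far from the other 3. Chance alone flags about 1 in 20. *Tyro3* was at 0.82 on control array 2, *Ttc21a* at -1.46 on control array 1, and *Slc18a1* at -0.39 on control array 4, all far above the other arrays. These 3 genes were picked for their spread. Among the brightest genes, *Cox6a1* was low on control array 1 (8.52) and *Rpl41* high on control array 4 (9.11). The causes were not tested.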

How the results depend on the processing

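Normexp background correction was run on the median spot intensities with an offset of 50, followed for the calls by quantile normalization. It cut the calls to 126 probes with either siRNA (from 726 and 545). For scale, the median processed signal of an array was 23.2 to 36.3. The part of the offset in this loss was not tested. The other planned settings kept both counts within 1.5 times, with 689 to 772 calls with siRNA1 and 514 to 583 with siRNA2 when single arrays were left out. With the replicate number as a block, 744 and 567 probes were called. The deviations of arrays from their group means were also correlated between groups. For same-numbered arrays r ranged from -0.18 (siRNA1 array 3 and siRNA2 array 3) to 0.53 (control array 1 and siRNA2 array 1), and most were positive. For different-numbered arrays r ranged from -0.46 to 0.42. Several same-numbered arrays also share a slide, so whether the numbers pair the samples cannot be told. With the mark for positive and significant signal in place of well above background, the members detected rose to 7 (oocyte), 4 (endothelial), 8 (liver), 7 (muscle), and 1 (*Xist* and Y-linked). Among the lists that rose by less, Sertoli cell markers went from 10 to 14 of 19, and male germ cell markers from 24 to 32 of 61. All named genes went from 11477 to 13147 of 17016. At 4 times the lowest signal well above background, chosen after seeing the data, the members detected fell to 13 (male germ cell), 5 (granulosa), 3 (peritubular and stromal), 3 (liver), 1 (muscle), and 1 (pluripotency). The detected genes numbered 11483 to 11626 and the detected probes 23162 to 23534 without 1 control array. At least 24 of the 25 brightest genes stayed among the 25 when a control array was left out, and 20 did with normexp background correction or with each gene's probes averaged. Scaling by the median raised every level by about the same amount and left the ranks of the Leydig markers unchanged. The probes well above background differed from control by 283.8 to 813.8 with siRNA1 and by -176.3 to 353.7 with siRNA2 when single arrays were left out. Signal over background limits the faint genes, which lie within a few fold of the lowest signal well above background.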
